A study of Mus musculus with 2 samples.

Results

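Within a spatial map of mouse brain RNA, 120 spots were chosen by the share of their counts that came from 6 genes of connective tissue and meninges: Col1a1, Col1a2, Col3a1, Dcn, Slc6a13 and Fmod. They are 120 of the 3358 brain spots with at least 2000 counts and 200 detected features, or 3.57%, and are called the matrix-rich spots here. The ranking used the summed counts of the 6 genes over the total counts of the spot. A spot is a small area of tissue that can hold several cells of different types, or part of one.

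The study measured total RNA in place with random primers (spRandom-seq) on 5 µm sections of formalin-fixed, paraffin-embedded mouse tissue. 1 library came from a normal brain and 1 from a normal heart, and each was read out on an array of 4992 barcodes. The labels describe both libraries as reverse transcribed with a primer that lacks cell barcode 2, and the sources used here give no strain, age or sex. With 1 library per tissue there is no replicate and no test, so every comparison is between sets of spots of the same section and every interval (exact, 95%) covers counting error only.

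The meninges are the connective tissue layers around the brain. Their fibroblasts make fibrillar collagens and small proteoglycans that bind collagen, and the arachnoid layer carries transporters and tight junctions that separate cerebrospinal fluid from the blood of the outer layer. Fibroblasts of the same lineage also follow large vessels into the tissue and lie in the stroma of the choroid plexus, the tissue that secretes cerebrospinal fluid.

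The matrix-rich spots held 709589 counts. Their total counts ran from 2009 to 45101 with a median of 4428, against a median of 7345 in the other 3238 spots past the depth cut. Because they were shallower, each was also matched to the 5 other spots nearest in total counts, which gave 600 spots of like depth with a median of 4438.5 counts. The 5 deepest matrix-rich spots held 19.7% of their counts. Parts of the ribosomal RNA precursor took 31.4% of counts in the matrix-rich spots and 31.2% in the others, and mitochondrial RNA took 6.18% and 4.83% (6.03% at like depth). After thinning each spot to 2000 counts, the median number of detected features was 984.5 in the matrix-rich spots, 936 in the others and 924 at like depth. All 4992 barcodes are the same in the heart section. There 57 of the 120 barcodes were also past the depth cut, against 3049 of all 4992 (61.1%). The abundant heart muscle genes Myh6, Actc1, Ttn and Tnnt2 summed to 47.9 CPM (counts per 1000000 counts) in the matrix-rich spots and 29.3 in the other brain spots, against 20767 in the heart library.

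The 6 genes that chose the spots supplied 571 counts there, 43.8% of the 1304 counts they had over all spots past the depth cut, while the matrix-rich spots held 1.96% of all counts. These values are fixed by the choice and are given as a description. The share of the 6 genes ran from 441 to 4195 CPM of the spot's own total, with a median of 648. The last spot inside the limit had 4 of 9065 counts from these genes, a share of 441.258 CPM, and the first outside had 1 of 2273, a share of 439.947 CPM. Of the 120 spots, 33 had counts of 1 of the genes, 35 of 2, 29 of 3, 14 of 4, 5 of 5 and 4 of all 6. In 16 spots the choice rested on 1 count, and 6 spots had 10 or more. The spot ranked highest had 24 such counts among 5721, from Col1a1, Col1a2, Col3a1 and Dcn, with none of Slc6a13 or Fmod. The 2 deepest spots, with 45101 and 41358 counts, held 56 and 43 counts of the genes and had all 6 of them. A further 509 spots had at least 1 count of the 6 genes and lay below the limit, so the limit falls on a slope and not at a gap.

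**Figure D1:**
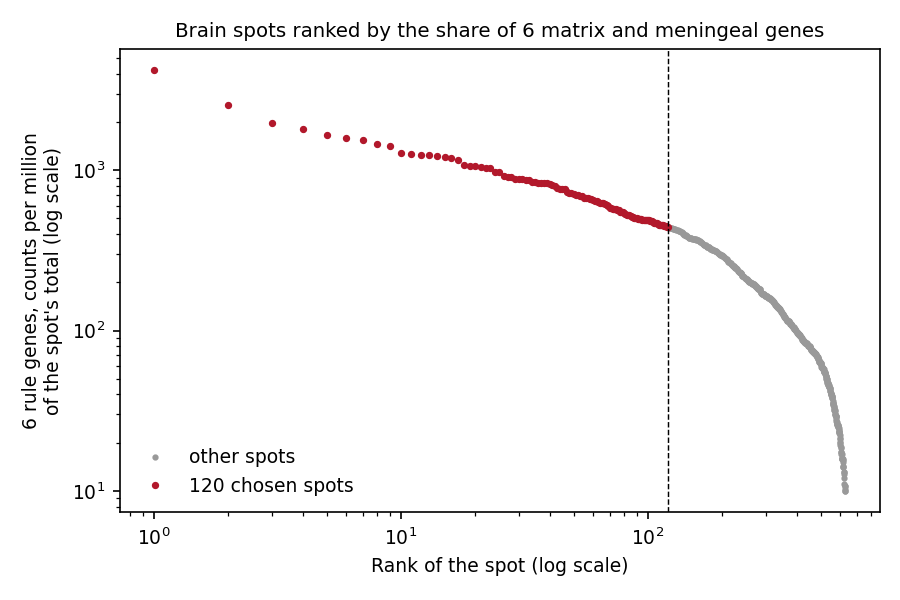
Brain spots past the depth cut in order of the share of the 6 genes: x, rank on a log scale; y, CPM of the 6 genes within the spot on a log scale; each point is 1 of the 629 spots with a count of these genes. The 120 chosen spots (red) run from 4195 down to 441 CPM, and the grey points go on below the dashed line without a step.

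Col1a2, a chain of type I collagen, was the most often seen of the 6, with 162 counts in 77 of the 120 spots, or 228 CPM against 5.28 in the other spots. Its partner chain Col1a1 had 107 counts in 52 spots, 151 CPM against 2.78. Col3a1, the chain of type III collagen, had 72 counts in 34 spots, 101 CPM against 2.81. Decorin (Dcn), a small proteoglycan that binds collagen fibrils, had 70 counts in 50 spots, 98.6 CPM against 5.20. Fibromodulin (Fmod), a relative of decorin, had 64 counts in 35 spots, 90.2 CPM against 1.46. Slc6a13, which encodes the GABA transporter GAT2 of leptomeningeal and arachnoid cells, had 96 counts in 47 spots, 135 CPM against 3.06. Col1a1 and Col1a2 were seen together in 34 of the chosen spots, and Slc6a13 and Col1a2 in 31. Among the spots that were not chosen, Slc6a13 and Col1a2 met in 12. The choice favours spots with several of the genes, and the pairs depend on how many spots held each gene. These pair numbers are therefore a description only.

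The sequences before the starts of Col1a2, Slc6a13 and Foxc1 (a transcription factor gene described with the other genes) are shown as examples. They are 1 gene of fibroblast matrix, 1 of barrier transport and 1 of regulation. All were high in the matrix-rich set, Col1a2 and Slc6a13 by the choice. Each sequence runs 5′ to 3′ over the 150 bases before the start on the gene's strand. The source is the RefSeq promoter table for GRCm38.p6, an older build than the mm39 of the counts. Capitals mark matches on either strand. A CCAAT box was searched by the letters of its name. A TATA box was searched as TATAAA, the usual core of that element. A GC box, a site of the widely expressed Sp factors, was searched as GGGCGG. Col1a2 lies at chr6:4505468-4505617 on the + strand, Slc6a13 (the most upstream of 3 listed starts) at chr6:121300138-121300287 on the + strand, and Foxc1 at chr13:31806496-31806645 on the + strand.
Col1a2: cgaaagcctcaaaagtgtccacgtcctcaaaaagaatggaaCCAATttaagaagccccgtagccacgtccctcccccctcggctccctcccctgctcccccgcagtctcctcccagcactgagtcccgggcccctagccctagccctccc
Slc6a13: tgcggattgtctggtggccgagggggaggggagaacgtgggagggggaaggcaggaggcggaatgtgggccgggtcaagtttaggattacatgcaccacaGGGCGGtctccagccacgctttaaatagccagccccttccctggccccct
Foxc1: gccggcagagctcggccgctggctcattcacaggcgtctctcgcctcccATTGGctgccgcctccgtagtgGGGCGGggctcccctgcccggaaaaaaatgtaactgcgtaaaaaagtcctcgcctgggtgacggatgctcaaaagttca
The Col1a2 window holds 1 CCAAT box, the Slc6a13 window 1 GC box, and the Foxc1 window 1 of each, with the CCAAT box on the other strand. Over all 32851 windows of the same length in the table, 24.5% hold a CCAAT box, 7.57% a TATA box and 28.6% a GC box. Of the 6 ranking genes and the 20 features with the largest ratios (20 or more counts), 18 of 26 are in the table. Of these, 5, 3 and 7 hold the respective box at 1 or more of their listed starts. The percentages are per window and these numbers per gene, so they are not like measures.

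To see whether the 6 genes mark the same spots, each was left out in turn and the spots were ranked again by the other 5. All 6 left-out genes were then higher in the top 120 spots than in the remaining spots. Col1a1 had 97.3 CPM against 3.96, a ratio of 24.6 (18.0 to 33.2), and was seen in 30 of 120 spots against 110 of the others. Fmod had the largest ratio, 26.2 (17.3 to 39.1), and Dcn the smallest, 12.3 (8.86 to 16.9). Slc6a13, the gene of the set that is no matrix component, had 89.9 CPM against 4.10, a ratio of 21.9 (15.9 to 29.9), in spots ranked by the 5 matrix genes. Against spots of like depth the 6 ratios lay between 8.06 for Dcn and 13.6 for Fmod.

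**Figure D2:**
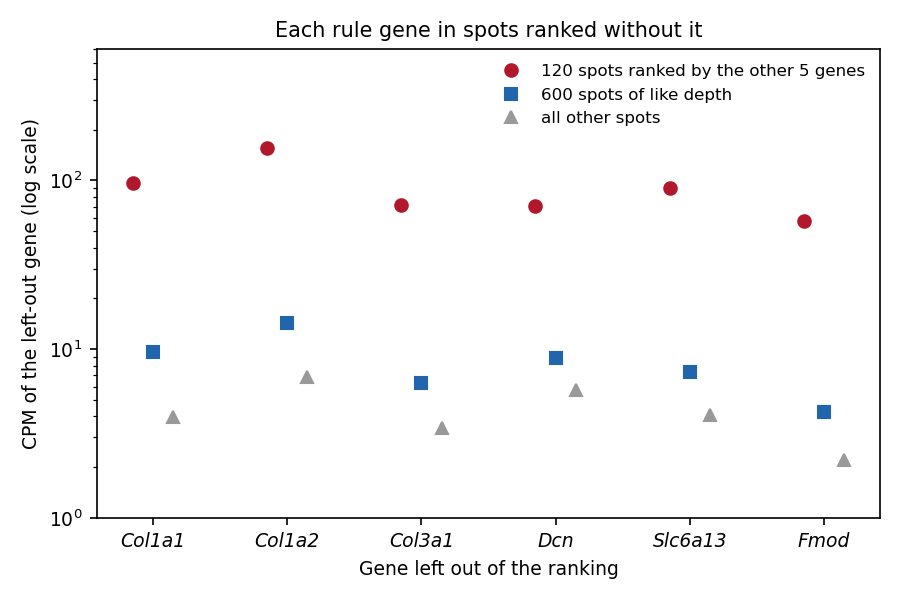
Each of the 6 genes in spots ranked without it: x, the gene left out; y, its CPM on a log scale, in the 120 spots ranked highest by the other 5 genes (red circles), in 600 spots of like depth (blue squares) and in all other spots (grey triangles). The red point is the highest for each gene, with Fmod at 57.3 and Col1a2 at 156 CPM as the lowest and highest of them.

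For the other features, summed CPM in the matrix-rich spots was set against summed CPM in the other 3238 spots. A feature counted as higher at a ratio of 2 or more with at least 10 counts in the matrix-rich spots, among features with at least 50 counts in all, and as lower at 0.5 or less where at least 10 counts were expected. By this rule of size, 1993 of 18221 features were higher (10.9%) and 798 of 6920 were lower (11.5%). Against spots of like depth, 945 of 8104 were higher (11.7%) and 677 of 7029 lower (9.63%). Of the features higher against all other spots, 856 were also higher at like depth, which is 43.0% of the first list and 90.6% of the second. Features with under 50 counts over the matrix-rich and like-depth spots were not tested there and could not be shared. The median ratio over the 18221 features was 1.19. The background for the gene lists that follow is therefore 10.9% higher and a median ratio of 1.19. In spots, more cells of a type and more RNA per cell cannot be told apart.

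The 20 features with the largest ratios were taken among those with 20 or more counts in the matrix-rich spots. Several of these 20 features are in the lists of matrix, transporter or mural genes. Because mural genes are among them, the spots are called by their matrix genes and not as meninges alone. Ptgds, the prostaglandin D synthase secreted by meningeal cells into cerebrospinal fluid, had 888 counts in 101 of the 120 spots, the widest spread of the 20 features with the largest ratios. Its level was 1251 CPM against 35.3, a ratio of 35.5 (32.5 to 38.7), or 18.5 against like depth. Mgp, which encodes the calcification inhibitor matrix Gla protein, had the largest ratio of the 20, 37.9 (23.5 to 60.5), from 34 counts. Its ratio against like depth was 15.5. Thbd, which encodes the anticoagulant receptor thrombomodulin, had 52 counts and a ratio of 32.6 (22.5 to 46.8). Aebp1, a collagen-binding protein, followed at 29.8 and Foxc1, a forkhead factor needed for meningeal development, at 29.3 (17.7 to 47.6). The other features among the 20, between 26.9 and 19.1, were Ogn, Acta2, Slc47a1, Eln, Prg4, Slc6a20a, Bgn, Ranbp3l, Slc13a4, Myl9, Vtn, Vim, Slc22a8, the long non-coding RNA Gm6260 and the gene ENSMUSG00000121069, which has no symbol in the files. All 20 stayed above 11 against like depth, from 11.1 for Slc13a4 to 23.6 for Prg4, and without the 5 deepest spots they lay between 13.8 (Myl9) and 34.5 (Ptgds). Ogn, Prg4, Slc6a20a and Eln overlap a gene on the opposite strand (Cenpp, Tpr, Ccr9 and Gm30003). Whether the counting used strand is not given in the sources used here, so reads of these pairs may be shared.

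**Figure D3:**
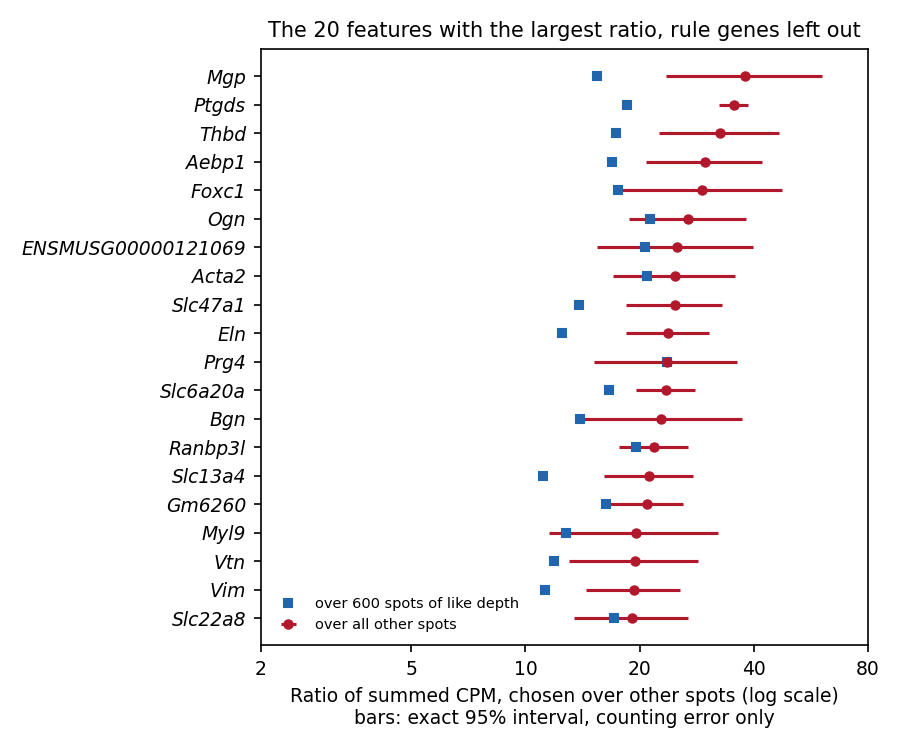
The 20 features with the largest ratio outside the genes of the ranking: x, summed CPM in the matrix-rich spots over summed CPM in other spots on a log scale, with bars for the exact 95% interval against all other spots (red) and points for 600 spots of like depth (blue squares); y, the feature. Features with under 20 counts in the matrix-rich spots were left out. Mgp at 37.9 and Ptgds at 35.5 lead, and the interval of Ptgds, with 888 counts, is the narrowest.

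Collagens other than those of the ranking were higher in the same spots. Of the 15 genes of fibrillar and associated collagens, 12 counted as higher. The list summed to 808 CPM against 256, a ratio of 3.16 (2.90 to 3.43), and 2.93 at like depth, and its median gene ratio was 3.83. Type VI collagen, the beaded filament of the fibroblast surface, was represented by Col6a1 at 8.74, Col6a2 at 15.9 (10.9 to 22.9) and Col6a3 at 5.19. The type V chains, which start type I fibrils, were at 4.43 for Col5a1 and 5.96 for Col5a2. Col12a1, which lies on fibril surfaces, had 72 counts and a ratio of 6.74. Col14a1 at 1.78, Col5a3 at 1.29 and Col11a1, with an interval from 0.652 to 1.47, did not reach the size rule.

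Proteoglycans and glycoproteins of the matrix had a larger ratio than the collagens. The 28 genes summed to 1284 CPM against 237, a ratio of 5.42 (5.06 to 5.81), and 15 of the 23 with enough counts were higher, with a median gene ratio of 4.50. Fibronectin (Fn1), the glycoprotein to which cells attach, had 214 counts in 74 spots and a ratio of 13.7 (11.7 to 15.9). Elastin (Eln), the rubber-like fibre of vessel walls, had 95 counts in 33 spots and a ratio of 23.8 (18.5 to 30.6), with 21 of the counts from 1 spot. Osteoglycin (Ogn) had a ratio of 26.9 and biglycan (Bgn) 22.8, both being relatives of decorin. Lumican (Lum), another relative, had 5 counts and a ratio of 2.24 with an interval from 0.713 to 5.38, so no difference was detectable for it at this depth.

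Collagen processing genes were less uniform. Of 16 with enough counts, 7 were higher and 1 was lower, and the list ratio was 2.03 (1.80 to 2.28), with a median gene ratio of 1.88. Serpinh1, the chaperone that handles procollagen alone, had a ratio of 22.3 (11.5 to 41.2) from 16 counts. Pcolce, which speeds removal of the procollagen end piece, had 13.3 (6.62 to 24.9). The broadly used folding enzyme Ppib was lower at 0.423 (0.137 to 0.992), and P4ha1, a prolyl hydroxylase subunit, had 0.799.

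Basement membranes, the thin sheets under the pia and around vessels, gave 13 of 17 genes higher, a list ratio of 3.32 (3.10 to 3.56) and a median gene ratio of 3.91. Laminin beta 2 (Lamb2) had the largest ratio, 12.1 (8.28 to 17.4), followed by nidogen 1 (Nid1) at 8.24 and perlecan (Hspg2) at 6.99. Lama2, the laminin chain of fibroblasts and vessels, had the most counts, 190 in 71 spots, at a ratio of 4.08. The most widely used chains had smaller ratios, with Col4a1 at 2.31 and Col4a2 at 1.43.

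Fibroblast genes gave 10 of 16 higher and 1 lower, with a list ratio of 2.91 (2.75 to 3.09) and a median gene ratio of 4.80. Vimentin (Vim), the intermediate filament of mesenchymal cells, had 70 counts in 37 spots and a ratio of 19.3 (14.4 to 25.5). The metalloprotease gene Adam12 had 266 counts in 78 spots and a ratio of 9.75, and Cped1 and Bicc1 had 7.87 and 5.70. The growth factor receptor Pdgfra, which oligodendrocyte precursors also carry, had a ratio of 5.43. The list of oligodendrocyte precursor genes, which holds Pdgfra, had 150 counts, a ratio of 2.08 (1.76 to 2.45) and 1.33 at like depth, with 2 of 8 higher and a median gene ratio of 1.68. Its factors Olig1 and Olig2 had 3 counts and 1 count, at 0.484 and 0.392. The part of precursors in the Pdgfra value was not tested. Thy1, which is both a fibroblast and a neuronal surface gene, was lower at 0.267 (0.155 to 0.428).

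Transcription factors of the meninges gave 12 of 15 higher, a list ratio of 3.64 (3.43 to 3.85) and a median gene ratio of 4.31. Eya2, a transcriptional coactivator, had 218 counts in 67 spots and a ratio of 12.2 (10.5 to 14.1), and its relative Eya1 had 6.70. The T-box genes Tbx15 and Tbx18 had 9.32 and 7.90. Zic2, one of the zinc finger genes of meninges and cerebellum, had 6.68, Zic4 2.97 and Zic1 1.93. Foxc2 and Foxd1 had too few counts over all spots for the rule, with 11 and 12 in the matrix-rich spots.

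Transporters of the arachnoid and pia were higher in 17 of 20 cases, a larger share than the 10.9% of all features. The list summed to 2602 CPM against 710, a ratio of 3.66 (3.49 to 3.84), or 3.42 at like depth, and its median gene ratio was 6.67. Slc6a20a, a proline transporter, had 179 counts in 54 spots and a ratio of 23.4 (19.5 to 28.1). The drug exporter Slc47a1 had 24.7 and the organic anion carriers Slc22a6 and Slc22a8 had 20.9 and 19.1. The sulfate and dicarboxylate carriers Slc13a4 and Slc13a3 had 21.2 and 12.1, and Slc6a12, a betaine and GABA transporter beside Slc6a13 in its family, had 17.4. The efflux pump Abcg2, which brain capillaries also carry, had 5.09. Slc4a10, a bicarbonate carrier that neurons also carry, had 1.45 and Slc41a2 0.745, both short of the rule.

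The list of arachnoid barrier and junction genes, which includes the secreted enzyme Ptgds, gave 8 of 13 higher. Its ratio was 5.15 (4.87 to 5.44), with 888 of its 1406 counts from Ptgds, and 2.09 (1.91 to 2.28) without Ptgds, or 1.85 at like depth. The median gene ratio was 3.07. The gap junction genes Gjb2, Gjb6 and Gja1 had ratios of 19.8, 7.51 and 3.62, and E-cadherin (Cdh1), the adhesion protein of arachnoid barrier cells, had 8.67 (5.76 to 12.7). Claudin 11 (Cldn11), of arachnoid tight junctions and of myelin, had 2.48 against all other spots and 1.25 at like depth. The desmosome genes Dsp at 0.930, Jup at 1.85 and Pkp2 at 0.687 did not reach the rule.

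Genes for making and handling retinoic acid, a signal that meninges send to the cortex, gave 7 of 10 higher, with a list ratio of 3.85 (3.42 to 4.32) and a median gene ratio of 3.70. Aldh1a2, the enzyme that makes retinoic acid in meninges, had 95 counts in 36 spots and a ratio of 18.8 (14.7 to 23.9). Its relative Aldh1a1 had 3.10. Cyp26b1, which breaks retinoic acid down, had 4.29.

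Growth factors and their binding proteins gave 13 of 19 higher, a list ratio of 5.72 (5.32 to 6.14) and a median gene ratio of 3.63. Among the bone morphogenetic proteins, Bmp7 had a ratio of 14.1 (10.7 to 18.5), Bmp6 had 223 counts and 11.9, Bmp4 had 8.49 and Bmp5 had 5.35. Igfbp5, which binds insulin-like growth factors, had 258 counts in 73 spots and a ratio of 7.84, and Igfbp3 and Igfbp2 had 11.2 and 6.50. Igf2, a growth factor of meninges, had 0 counts in the whole brain library and 0 in the heart library. It overlaps Gm49394 on the same strand, and whether that set its value was not tested. Secreted and serum-type proteins gave 10 of 15 higher, a ratio of 3.96 (3.72 to 4.21), which became 7.26 with a depth cut of 5000 counts, and a median gene ratio of 7.37. Ceruloplasmin (Cp) and apolipoprotein D (Apod) had 11.9 and 12.2, and the complement inhibitor Serping1 had 23.1. Enpp2, which is abundant in choroid plexus epithelium and myelinating cells, had 0.780.

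Vessel genes were higher in the same spots. The mural list, of smooth muscle cells and pericytes, gave 13 of 13 genes with enough counts, a list ratio of 5.90 (5.37 to 6.47), 4.96 at like depth, and a median gene ratio of 6.55. The contractile genes of arterial smooth muscle had large ratios, with Acta2 at 24.8, Tagln at 20.1, Myl9 at 19.5 and Myh11 at 15.6. The pericyte genes Rgs5, Pdgfrb and Abcc9 had 2.60, 4.30 and 3.29. Vtn, a gene of the mural list that pericytes also carry, had 38 counts and a ratio above that of Myh11. It was among the 20 largest ratios of features with 20 or more counts. Endothelial genes gave 12 of 18 higher, a ratio of 3.84 (3.53 to 4.16) and a median gene ratio of 3.49, with Vwf, of larger vessels, at 8.62 and Flt1 at 3.21. Their part in the ratios of the matrix genes was not tested.

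A set of 120 spots chosen in the same way by the endothelial and mural genes shared 40 spots with the matrix-rich set. With the shared spots left out, a step chosen after seeing the data, 80 spots of each remained, and each set is high in its own genes by choice. Between them, proteoglycans and glycoproteins had a ratio of 1.04 (0.896 to 1.20) and basement membrane genes 1.01 (0.866 to 1.17), matrix-rich over vessel. Transporters had 1.36 (1.23 to 1.51) and fibrillar and associated collagens 1.52 (1.26 to 1.83). Arachnoid and junction genes had 1.35 (1.20 to 1.52) with Ptgds and 0.942 (0.787 to 1.13) without it. Ptgds itself had 1153 CPM in the 80 matrix-rich spots and 642 in the 80 vessel spots. Slc6a13 had 110 and 28.9, a difference that the ranking favours. Over the 11 matrix and meningeal lists, each taken whole, the ratios between these sets ran from 1.01 to 1.52, where the same lists had ratios from 2.03 to 5.72 against the rest of the section.

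Border macrophages, which live along the meninges and large vessels, gave 4 of 5 genes higher and a list ratio of 5.60 (4.71 to 6.62). Between the 80 matrix-rich and 80 vessel spots, the list had a ratio of 0.953 (0.667 to 1.36). Mrc1 had 37 counts and 6.72, Cd163 had 7.60, Stab1 had 6.61 and F13a1 had 4.12. Microglial genes had a list ratio of 1.69 (1.39 to 2.05), with 2 of 7 higher, and P2ry12 was at 1.81. Other leukocyte genes summed to 1.73 (1.37 to 2.15). Haemoglobin genes had 1 count in the whole brain library and 0 in the matrix-rich spots. Cartilage and bone genes had 115 counts in 51 of the spots, a ratio of 1.31 (1.08 to 1.58), 1.53 (1.23 to 1.89) at like depth, and a median gene ratio of 2.19, with 1 of 4 higher. That gene was Alpl, a phosphatase that vessels also carry, at 4.43. The bone and cartilage markers Sp7, Bglap, Ibsp and Comp had 0 counts. A floor of 3 counts over the set, which is not an interval limit, would be 4.23 CPM. The skeletal muscle list had 7 counts over 6 spots.

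Of choroid plexus epithelium, Ttr was lower in the matrix-rich set and the other genes as a sum were not. The 14 genes summed to 130 CPM against 243 in the other spots, a ratio of 0.534 (0.430 to 0.656), or 0.548 at like depth. Transthyretin (Ttr), the carrier protein that this epithelium secretes, had 15 counts in 5 of 120 spots and a ratio of 0.144 (0.0804 to 0.237). Without Ttr the other 13 genes summed to 109 CPM against 95.7, a ratio of 1.13 (0.892 to 1.42). None of the 13 genes with enough counts was higher, 1 of the 3 with enough expected counts was lower, and the median gene ratio was 0.802. Prlr had the most counts, 26, and a ratio of 1.60. The direction of the whole list did not hold under other limits. When the limit was moved to the top 240 spots, the depth cut to 5000 counts, or the choice restricted to spots with 2 or more of the 6 genes, the ratio became 4.31, 7.21 and 3.47. A spot of 41818 counts, with 12 counts of the ranking genes and 569 of the choroid list, entered in each of these. Without it the ratios were 2.53, 5.05 and 0.853, so it decided the direction in the last case and not in the other 2. Against the 120 spots chosen by choroid plexus genes, of which 10 were shared and left out, matrix-rich spots had 47.8 times the Slc47a1 (12.7 to 403) and 10.5 times the Ptgds level (8.63 to 12.8), whereas Slc13a4 differed by 1.96-fold (1.37 to 2.81).

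Neuronal genes were lower and still present. The 15 pan-neuronal genes summed to 1817 CPM against 4531, a ratio of 0.401 (0.379 to 0.424), and 11 of 15 were lower, with a median gene ratio of 0.339. Snap25, of the synaptic vesicle release machinery, had 136 counts in 76 of the 120 spots and a ratio of 0.249 (0.209 to 0.295). Map2, of dendrites, had 0.581. Among genes of excitatory neurons 7 of 9 were lower, with a list ratio of 0.339 (0.316 to 0.363), or 0.549 as a mean of the spots' own CPM. Inhibitory neuron genes had a list ratio of 0.733 (0.599 to 0.889) and none of 2 with enough expected counts was lower. The smallest ratios were those of Lratd1 and Shox2, with 0 counts in the matrix-rich spots against 16.9 and 16.6 CPM in the others. Set against a floor of 3 counts over the set, which is not an interval limit, they were 4.01-fold and 3.92-fold lower. The cortical factor Neurod2 had 1 count and a ratio of 0.0470 (0.00119 to 0.262). Hapln4, Rnf112, Omg, Tmem41b, Pcp4, Hars and Neurod6 followed between 0.0667 and 0.106.

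Genes of the outermost cortical layer went in different directions. Reln, made by the neurons under the pia, had 109 counts in 59 spots and a ratio of 2.02 (1.65 to 2.45), and 1.83 at like depth. Ndnf, a marker of layer 1 interneurons, had 40 counts and 8.46 (5.90 to 11.9). The upper-layer genes Cux2 at 0.664 and Rorb at 0.698 were below 1, Lamp5 was at 0.516 and Calb1 at 0.495.

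Astrocyte genes as a list had a ratio of 1.44 (1.37 to 1.51), with 6 of 15 higher. Gfap, the filament of the astrocytes that form the limiting layer under the pia, had 130 counts in 48 spots and a ratio of 9.04 (7.44 to 10.9), or 4.78 at like depth. The water channel Aqp4, of astrocyte endfeet, had 3.62 and 2.16, and Agt had 5.24 and 3.48. Slc1a2, the main glutamate transporter of grey matter astrocytes, had 1.12 against all other spots and 0.927 at like depth. Myelin genes had 1.01 (0.930 to 1.10) against all other spots and 0.539 (0.493 to 0.588) at like depth, so their direction depended on the depth of the spots they were set against. Trpm3, an ion channel gene that hosts a microRNA gene, was among the 10 features with the highest level, with 2162 counts in 113 spots and a ratio of 3.16 (3.02 to 3.30).

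**Figure D4:**
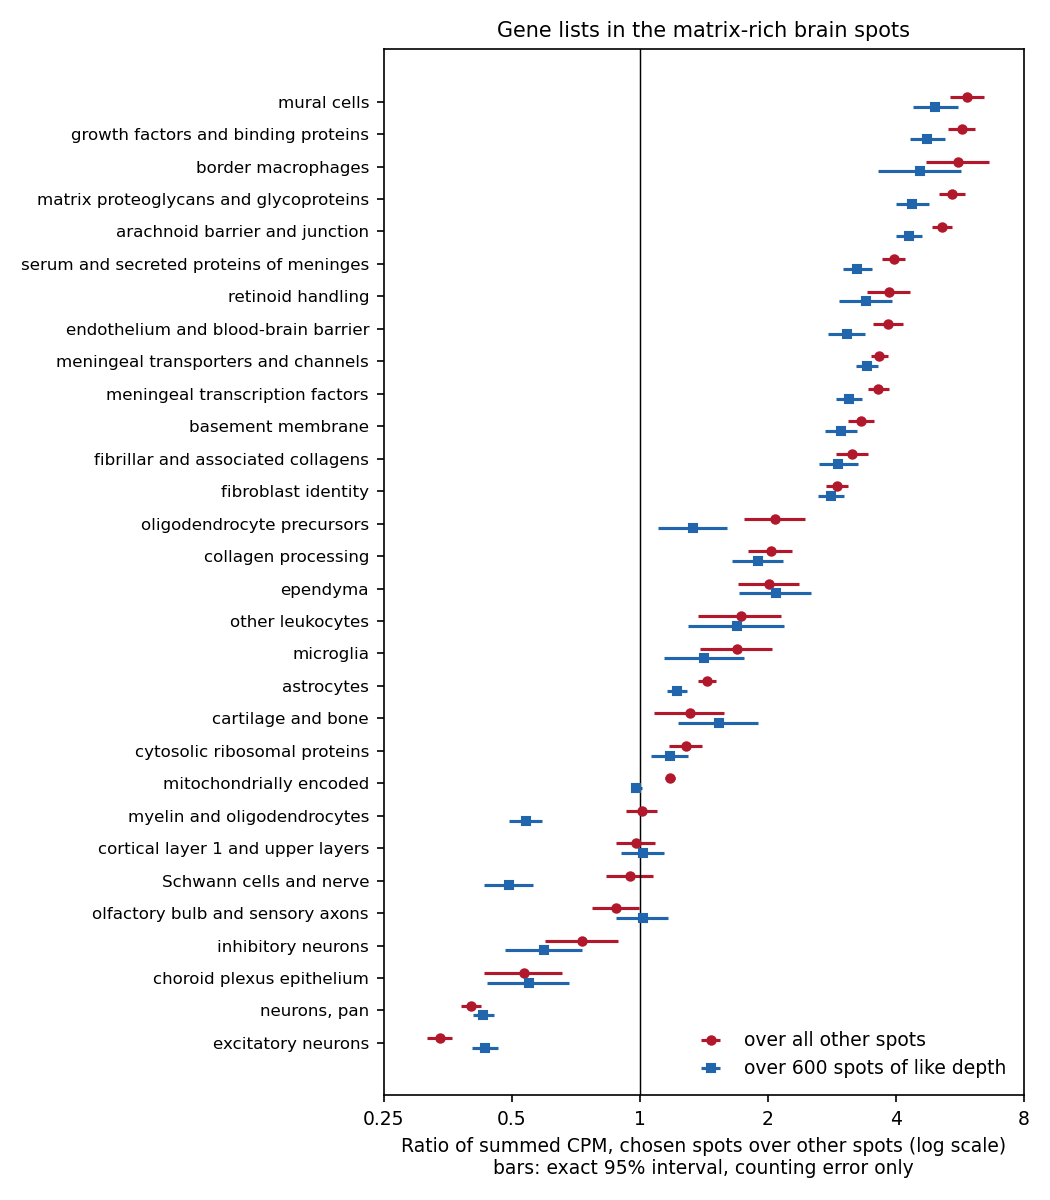
The 30 gene lists outside the ranking genes, erythrocytes and skeletal muscle: x, summed CPM in the 120 spots over summed CPM in all other spots (red circles) or in 600 spots of like depth (blue squares), on a log scale, with exact 95% intervals; y, the list. Mural genes at 5.90 lead and excitatory neuron genes at 0.339 are lowest. The blue point lies well to the left of the red one for the myelin, Schwann and oligodendrocyte precursor lists.

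Across the ranking the lists did not all follow the 6 genes. In spots ranked 1 to 20, 21 to 60 and 61 to 120, the 6 genes summed to 1458, 839 and 525 CPM. Transporters stayed at 2543, 2685 and 2558 CPM over the same bands, then stood at 1626 in the next 120 spots, 841 in the 240 after those and 679 beyond rank 480. Mural genes had 1125, 715 and 571 CPM inside the limit and 426, 172 and 111 outside. In the first band, 75 of the 142 mural counts came from the spot of 45101 counts, and a spot of 7515 counts had 3726 CPM. Whether the fall inside the limit holds without these spots was not tested. Proteoglycans and glycoproteins had 1671, 1317 and 1107 inside and 769 in the next 120 spots, so spots just outside the limit kept part of the same pattern. Pan-neuronal genes had 1323, 1737 and 2071 CPM inside the limit, and 4613 beyond rank 480. Choroid plexus genes had 95.1, 120 and 150 CPM inside and 1680 and 913 in the next bands, against 157 beyond rank 480. In the first band past the limit, 569 of the 1230 choroid counts came from 1 spot of 41818 counts. Whether that band stays above the next one without this spot was not tested.

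**Figure D5:**
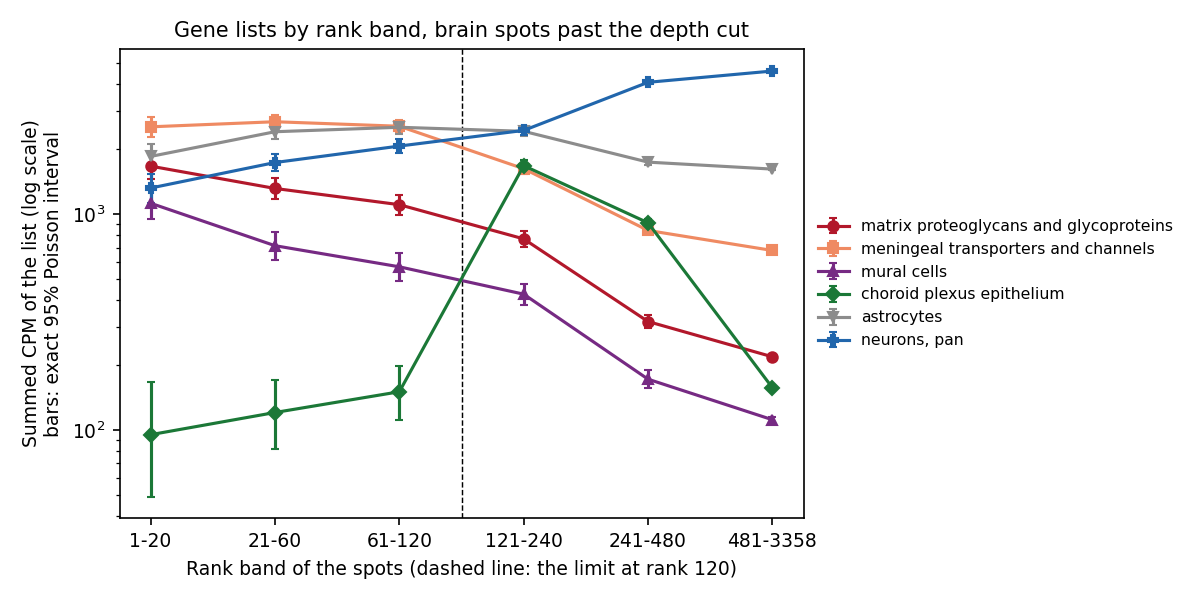
Summed CPM of 6 gene lists by rank band: x, the band of ranks in order, with a dashed line at rank 120; y, summed CPM on a log scale, with exact 95% Poisson intervals. Transporters are level at about 2543 to 2685 CPM up to rank 120, pan-neuronal genes go from 1323 to 4613, and the choroid plexus list peaks at 1680 CPM just past that line.

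The 120 spots differed in which of the 6 genes they held. Counts of a collagen gene and of Slc6a13 met in 35 spots with a median of 7030 total counts, 68 had a collagen gene without Slc6a13 (median 4239), 12 had Slc6a13 without a collagen gene, and 5 had neither. The deeper spots have more chances to show both. Transporters summed to 2805 CPM in the 35 spots with both, 2498 in the 68 with collagen alone and 2295 in the 12 with Slc6a13 alone. In the last 5 they summed to 910 CPM, from 11 counts. Mural genes had 888, 590 and 561 CPM in the first 3 kinds. Excitatory neuron genes had 812, 1340, 1683 and 3557 CPM over the 4 kinds. The 5 spots with neither collagen nor Slc6a13 held 12088 counts in all, with a median of 2263. Myelin genes had 36 of these counts, or 2978 CPM. This compares with 788 CPM in all spots that were not chosen and 1480 in the deeper 600 spots of like depth (median 4438.5).

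The same ranking was applied to the heart section, and its top 120 spots were compared with the 120 of the brain. Of genes that the ranking did not use, Ptgds was 217-fold (117.4 to 454.1) higher in the brain set, Slc6a20a 43.7-fold and Ranbp3l 20.3-fold. Foxc1 was 2.07-fold higher in the brain set. Mgp and Bgn were lower in the brain set, at ratios of 0.201 and 0.190. Prg4, which encodes the lubricating protein lubricin, had a ratio of 0.134 (0.0911 to 0.190). The ranking genes, whose summed share chose both sets, are a description only: Slc6a13 had 135 CPM in the brain set and 5.77 in the heart set, Col1a2 228 and 256, Dcn 98.6 and 479, and Col3a1 101 and 363. These are ratios between 2 libraries of different tissues, and library and tissue cannot be told apart.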

How the data were processed

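The authors deposited raw counts, whole numbers for 40276 features and 4992 barcodes in each tissue. STARsolo and mm39 are named in the submitters' processing notes. Its version, and whether molecular tags were merged, introns counted or strand used, are not given in the sources used here. The members and gene lists were chosen with earlier results of these data known. Counts were summed over spots and scaled to CPM. Levels have exact Poisson intervals, shares exact binomial and ratios exact conditional binomial intervals (95%). These take each count as a separate molecule, and no test was run.

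The named genes are the 6 of the ranking, the 20 largest ratios (20 or more counts) and 10 smallest, the 10 highest CPM, and from each list up to 4 members of highest CPM and all past the size rule. Examples in the text outside this rule were chosen after their values were seen. GENCODE release 21 (GRCm38) gave biotypes and overlaps by gene ID for 35551 of 40253 IDs. Thinning used seed 1. Of 467 listed genes, 2 were not among the features. Barcodes below 2000 counts entered only the alternative with a depth cut of 1000 and the closing values of shallow barcodes. Neither images nor the positions of spots entered any value. The steps were tested on simulated data. Python 3.11.15, numpy 2.4.6, scipy 1.17.1, pandas 2.3.3 and matplotlib 3.10.9 were used. Values of a few listed genes are not reported here.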

Additional observations from a re-analysis of the deposited data

Results flagged for a closer look

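Barcodes below the depth cut also carried the 6 genes. The 722 brain barcodes with 500 to 1999 counts had 119 counts of them, 140.2 CPM (116.1 to 167.7), against 20.6 CPM in the spots past the cut that were not chosen. The chosen spots, at 804.7 CPM, are left out of that last value, so the choice lowers it and the sets are not alike. In 96 of the 722 barcodes the share was at or over that of the last chosen spot, and 17 had 2 or more counts of the genes. The 912 barcodes with under 500 counts had 16 counts of them, 102 CPM (58.3 to 166). They were left out by the depth cut, where 1 count alone passes the limit, and whether they lie over meninges was not tested.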

How the results depend on the processing

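The number of higher features moved from 1993 of 18221 tested (10.9%) to 945 of 8104 (11.7%) against spots of like depth. At a ratio of 4, higher features moved from 1993 to 517 and lower features from 798 to 74. Over the other settings the numbers of higher and lower features ran from 1367 to 2526 and from 592 to 841. The share of higher features among those called was 71.4%, and 58.3% at like depth. These shares depend on how many features were tested in each direction. In the main setting 10.9% of 18221 were higher and 11.5% of 6920 lower. At like depth 11.7% of 8104 were higher and 9.63% of 7029 lower. The collagen ratio of 3.16 became 2.604 with a depth cut of 5000 counts and 2.536 in the top 240 spots. The transporter ratio of 3.66 became 3.139 (cut of 5000), 3.437 (cut of 1000), 3.048 (top 240), 3.047 (mean of the spots' own CPM), 3.417 (like depth) and 3.36 (without the 5 deepest). The pan-neuronal ratio of 0.401 became 0.4324 (cut of 5000), 0.424 (cut of 1000), 0.355 (top 60), 0.4671 (top 240), 0.4846 (mean of spots), 0.4289 (like depth), 0.3784 (2 or more of the 6 genes) and 0.4459 (without the 5 deepest). The choroid ratio of 0.534 turned to 7.207 (cut of 5000), 4.314 (top 240) and 3.467 (2 or more genes), with Ttr at 8.668, 4.98 and 3.843. It became 0.923 as a mean of spots and 0.3938 without spots shared with the choroid set.

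At like depth the olfactory list (1.016), mitochondrially encoded list (0.983), Slc1a2 (0.9273), mt-Nd5 (0.9119), mt-Co1 (0.9522) and 28S (0.9791) changed side of 1, as did 28S at a cut of 1000 (0.9991) and as a mean of spots (0.9618) and Camk2a as a mean of spots (1.007). The cause was not tested. Leaving out 1 spot of 41818 counts, an alternative chosen after seeing the data, gave choroid ratios of 5.047 (cut of 5000), 2.531 (top 240) and 0.853 (2 or more genes). Leaving Ttr out of the list, also chosen after seeing the data, turned the choroid ratio to 1.133, and leaving Ptgds out of the arachnoid list took 5.15 to 2.087. The secreted list moved from 3.96 to 7.258 (cut of 5000), excitatory neuron genes from 0.339 to 0.549 (mean of spots), and at like depth myelin genes from 1.01 to 0.5391, the Schwann list from 0.948 to 0.492 and precursor genes from 2.08 to 1.334. Among the values of other lists, 215 moved by less than their interval and 92 by more. No paired analysis was possible because each tissue has 1 library. Depth limits the choice of spots, since 16 rest on 1 count.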
